A study of Mus musculus with 13 samples.

Results

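Of the 48795 genes counted in the right brain hemisphere of mice at postnatal day 11, 41 were followed here because they form a fixed list of interferon-stimulated genes, genes of antigen presentation by MHC class I and genes of MHC class II. Members were chosen by gene name with no threshold on these measurements, though with earlier results of these data known, and the list holds 25 interferon-stimulated genes, 11 class I genes and 5 class II genes, all of which were found in the table of counts. mRNA libraries from 13 mice were compared. The 5 nlsYAP5SA mice were NexCre +/- YAP5SAnls +/-, so that Cre recombinase from the NEX (NeuroD6) locus, which is active in neuronal precursors of the pyramidal lineage, switched on a nuclear form of YAP1 that its inhibitory kinases cannot phosphorylate. The line serves as a model of ependymoma-like brain tumours. The 5 control mice were their littermates with NexCre -/- YAP5SAnls +/-, which carry the silent transgene without Cre. The 3 C57BL/6 mice were wild type and not littermates, and all 13 mice had the C57BL/6J background. Each library was made from 1 hemisphere without olfactory bulb and cerebellum, so neurons, glia, vessels, immune cells and any abnormal tissue were measured together, and more cells of a type cannot be told apart from more RNA per cell.

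Type I and type III interferons and interferon gamma bind cell surface receptors and act through JAK kinases on transcription factors that then enter the nucleus. Complexes that hold STAT2 and IRF9 bind the interferon-stimulated response element (ISRE), and interferon gamma acts through the gamma-activated site (GAS), which starts transcription of many antiviral and regulatory genes. MHC class I presents peptides from the cytosol on nearly all nucleated cells. The immunoproteasome cuts those peptides, the TAP transporter brings them into the endoplasmic reticulum, and NLRC5 drives transcription of the class I genes. MHC class II presents peptides taken up from outside, needs the invariant chain CD74 and the transactivator CIITA, and is largely kept to professional antigen-presenting cells. In the healthy brain both classes are low, and microglia are the main resident cells that can raise them.

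The promoters of a few members are shown first, since the motifs searched for there were spread unevenly over the 3 gene groups. RefSeq promoter windows of GRCm38.p6, from 250 bases before to 50 after a start site, were found for 33 of the 41 genes, in 39 windows. Both strands were searched for GAAA, any 2 bases and GAAA again (ISRE), for TTCNNNGAA (GAS) and for CCAAT (the CCAAT box of MHC promoters), where matches may overlap each other. The 250 bases before the start are printed for 4 interferon-stimulated genes and for B2m with ISRE matches in capitals, 5′ to 3′ on the strand of the gene, so that a match on the other strand reads as its reverse complement. They are Ifit1 (chr19:34640639-34640888, plus strand), Ifit3 (chr19:34583279-34583528, plus strand), Rsad2 (chr12:26456453-26456702, minus strand), Isg15 (chr4:156200819-156201068, minus strand) and B2m (chr2:122147437-122147686, plus strand).
Ifit1: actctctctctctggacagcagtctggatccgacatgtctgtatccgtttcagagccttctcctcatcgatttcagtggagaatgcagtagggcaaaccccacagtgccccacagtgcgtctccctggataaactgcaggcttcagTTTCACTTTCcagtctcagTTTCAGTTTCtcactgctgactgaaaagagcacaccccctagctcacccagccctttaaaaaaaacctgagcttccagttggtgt
Ifit3: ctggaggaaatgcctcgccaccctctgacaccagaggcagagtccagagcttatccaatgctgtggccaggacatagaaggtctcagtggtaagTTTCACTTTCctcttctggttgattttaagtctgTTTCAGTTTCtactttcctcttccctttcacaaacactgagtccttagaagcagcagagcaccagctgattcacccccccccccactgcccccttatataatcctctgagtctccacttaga
Rsad2: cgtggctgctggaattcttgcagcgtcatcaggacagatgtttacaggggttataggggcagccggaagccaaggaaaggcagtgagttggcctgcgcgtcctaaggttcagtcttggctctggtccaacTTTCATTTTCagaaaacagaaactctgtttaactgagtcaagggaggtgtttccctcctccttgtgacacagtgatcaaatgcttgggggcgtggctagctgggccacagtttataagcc
Isg15: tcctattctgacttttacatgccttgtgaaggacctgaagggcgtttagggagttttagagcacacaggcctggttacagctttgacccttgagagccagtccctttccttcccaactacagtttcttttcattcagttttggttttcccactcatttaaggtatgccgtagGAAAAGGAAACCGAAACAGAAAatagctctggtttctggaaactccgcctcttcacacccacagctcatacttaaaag
B2m: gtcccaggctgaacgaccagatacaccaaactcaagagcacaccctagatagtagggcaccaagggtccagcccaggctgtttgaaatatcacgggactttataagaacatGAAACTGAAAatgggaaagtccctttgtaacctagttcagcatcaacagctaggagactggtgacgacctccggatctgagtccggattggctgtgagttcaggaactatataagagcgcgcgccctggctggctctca
The 2 Ifit1 matches began 104 and 85 bases before the start site and the 2 of Ifit3 156 and 122 bases before it. Isg15 held 3 overlapping matches that began 78, 72 and 66 bases before the start, while Rsad2 and B2m held 1 each, at 120 and 139 bases.

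For Tap1 (chr17:34187306-34187555, plus strand), H2-K1 (chr17:34000334-34000583, minus strand) and H2-Eb1 (chr17:34305617-34305866, plus strand) the capitals mark CCAAT boxes.
Tap1: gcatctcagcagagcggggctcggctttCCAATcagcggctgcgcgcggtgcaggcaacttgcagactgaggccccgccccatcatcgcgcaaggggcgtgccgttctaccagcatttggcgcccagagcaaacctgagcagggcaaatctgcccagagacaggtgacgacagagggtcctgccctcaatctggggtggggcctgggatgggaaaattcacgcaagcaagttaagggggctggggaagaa
H2-K1: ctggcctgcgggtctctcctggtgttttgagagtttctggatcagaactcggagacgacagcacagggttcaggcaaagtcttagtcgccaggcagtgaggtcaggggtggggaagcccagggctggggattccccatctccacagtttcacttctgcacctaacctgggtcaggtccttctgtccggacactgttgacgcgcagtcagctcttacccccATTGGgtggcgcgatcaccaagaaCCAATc
H2-Eb1: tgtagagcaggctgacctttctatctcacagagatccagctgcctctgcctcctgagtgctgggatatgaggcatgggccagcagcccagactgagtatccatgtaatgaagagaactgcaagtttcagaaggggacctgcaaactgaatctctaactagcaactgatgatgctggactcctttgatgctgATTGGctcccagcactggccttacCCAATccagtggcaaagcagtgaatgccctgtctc
Among genes with a window, an ISRE match was present in 13 of 22 interferon-stimulated genes (59.1%), 2 of 9 class I genes (B2m and H2-T23) and 0 of 2 class II genes, against 3.99% of all 27025 gene symbols. A GAS match was present in 7 of 22, 1 of 9 and 0 of 2 genes, against 9.55% of all. CCAAT was present in 7 of 22 interferon-stimulated genes, 7 of 9 class I genes and both class II genes, against 41.1% of all. A match is a string of letters in this window and no measurement of binding. The windows of Tap1 and Psmb9, which are read in opposite directions, overlap, so they share letters.

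**Figure D1:**
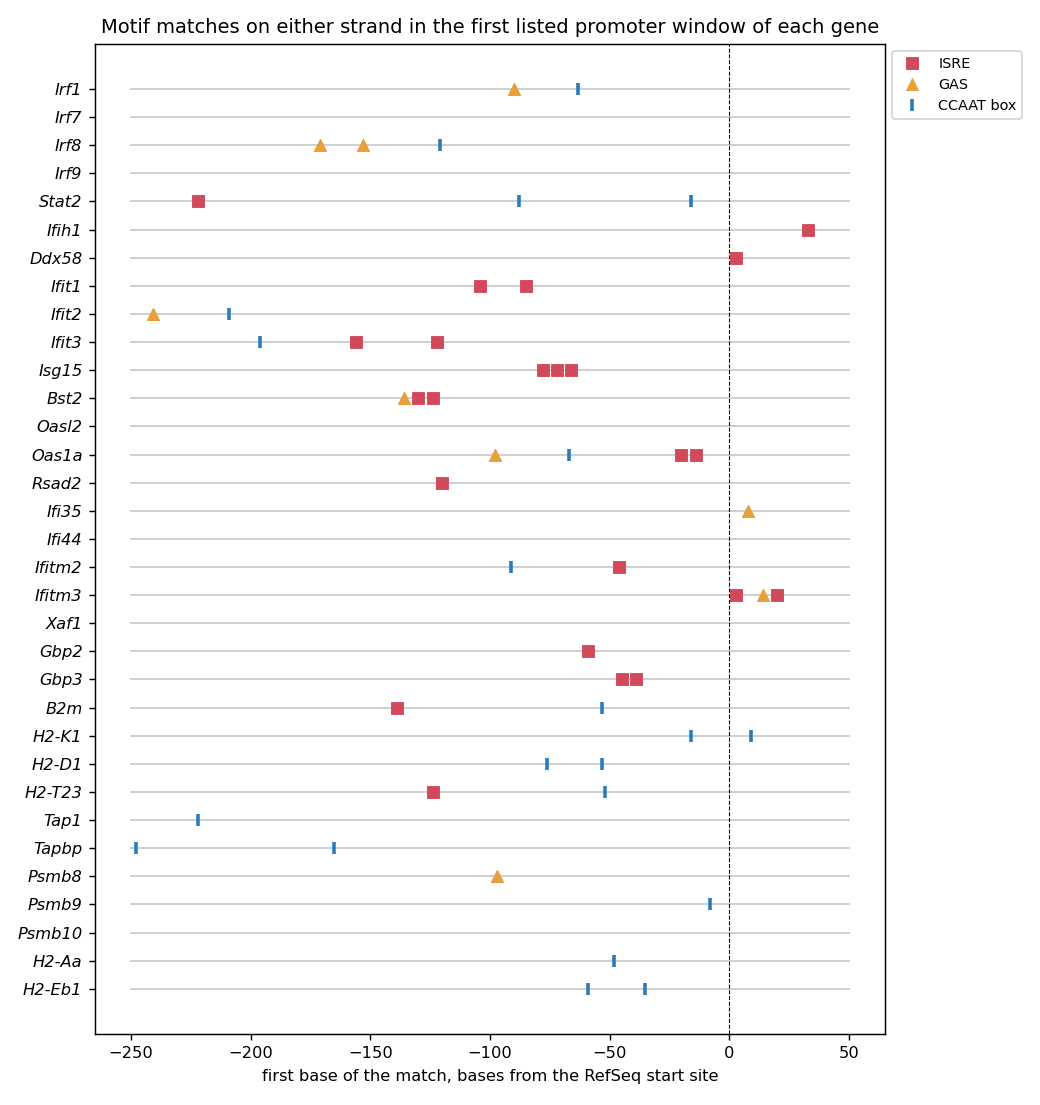
Matches to the ISRE, GAS and CCAAT letters in the first listed promoter window of each of the 33 genes with a window. The x axis gives the first base of a match relative to the RefSeq start site in bases, and grey lines are the searched windows. Squares (ISRE) lie mostly in the interferon-stimulated genes at the top and vertical marks (CCAAT box) mostly in the MHC genes at the bottom.

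The libraries held 20871566 to 25524349 estimated counts. The transgene check followed the labels: Cyr61 and Ctgf, targets of YAP1, were higher in nlsYAP5SA than in control mice (log2 fold change 2.48 ± 0.18 (SE), edgeR adjusted p = 4.18e-06, and log2 fold change 1.43 ± 0.09 (SE), edgeR adjusted p = 1.82e-06), and Yap1 itself rose slightly (log2 fold change 0.23 ± 0.06 (SE), edgeR adjusted p = 0.036). Neurod6, the gene of the Cre locus, was lower (log2 fold change -0.98). The labels give no sex. Y-linked transcripts were present in 5 of 5 controls, 2 of 5 nlsYAP5SA mice (replicates 3 and 4) and 2 of 3 C57BL/6 mice, so sex and genotype are partly mixed, and the counts of members called are also given with the Y-linked level as a covariate and, for nlsYAP5SA against control, within the mice that had Y-linked transcripts. Control and nlsYAP5SA mice came from 2 matings, and which mouse came from which is not given. Adjusted p-values below are Benjamini-Hochberg values of the edgeR quasi-likelihood test, taken over every gene that passed the filter, and a gene is called at an adjusted p of 0.05 or less. Levels are CPM, the usual counts scaled to a common library size, here with the TMM factor, and values of single mice are given in the order of their replicate numbers.

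Most interferon-stimulated and class I genes were called higher in nlsYAP5SA hemispheres than in those of control littermates, and 1 class II gene was called while 4 of 5 had a higher mean. Of the 41 genes, 30 were called, all higher, against a background of 7.36% of 16315 genes called higher and 3.44% called lower. These were 20 of 25 interferon-stimulated genes, 9 of 11 class I genes and 1 of 5 class II genes (H2-Ab1). DESeq2 called 33 members, against 8.36% of genes called higher by it. The median log2 fold change was 1.13, 0.77 and 0.85 in the 3 gene groups, the last over the 4 class II genes tested, beside -0.01 over all genes tested. In 27 of the 40 members tested every nlsYAP5SA mouse was above every control, which held for 6.5% of all genes tested. In 3 called genes (Ifi44, Tapbp and Psmb9) nlsYAP5SA replicate 3 lay within the range of the controls. Ciita did not pass the filter on low counts. Another 9 members (Irf7, Isg15, Usp18, Oas1a, Nlrc5, Psmb9, H2-Aa, H2-Ab1 and H2-Eb1) had fewer than 5 controls over the 0.434 CPM that the filter asked for in 5 mice, so they could pass only with nlsYAP5SA mice that were higher, and 31 members had all 5 controls over it.

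**Figure D2:**
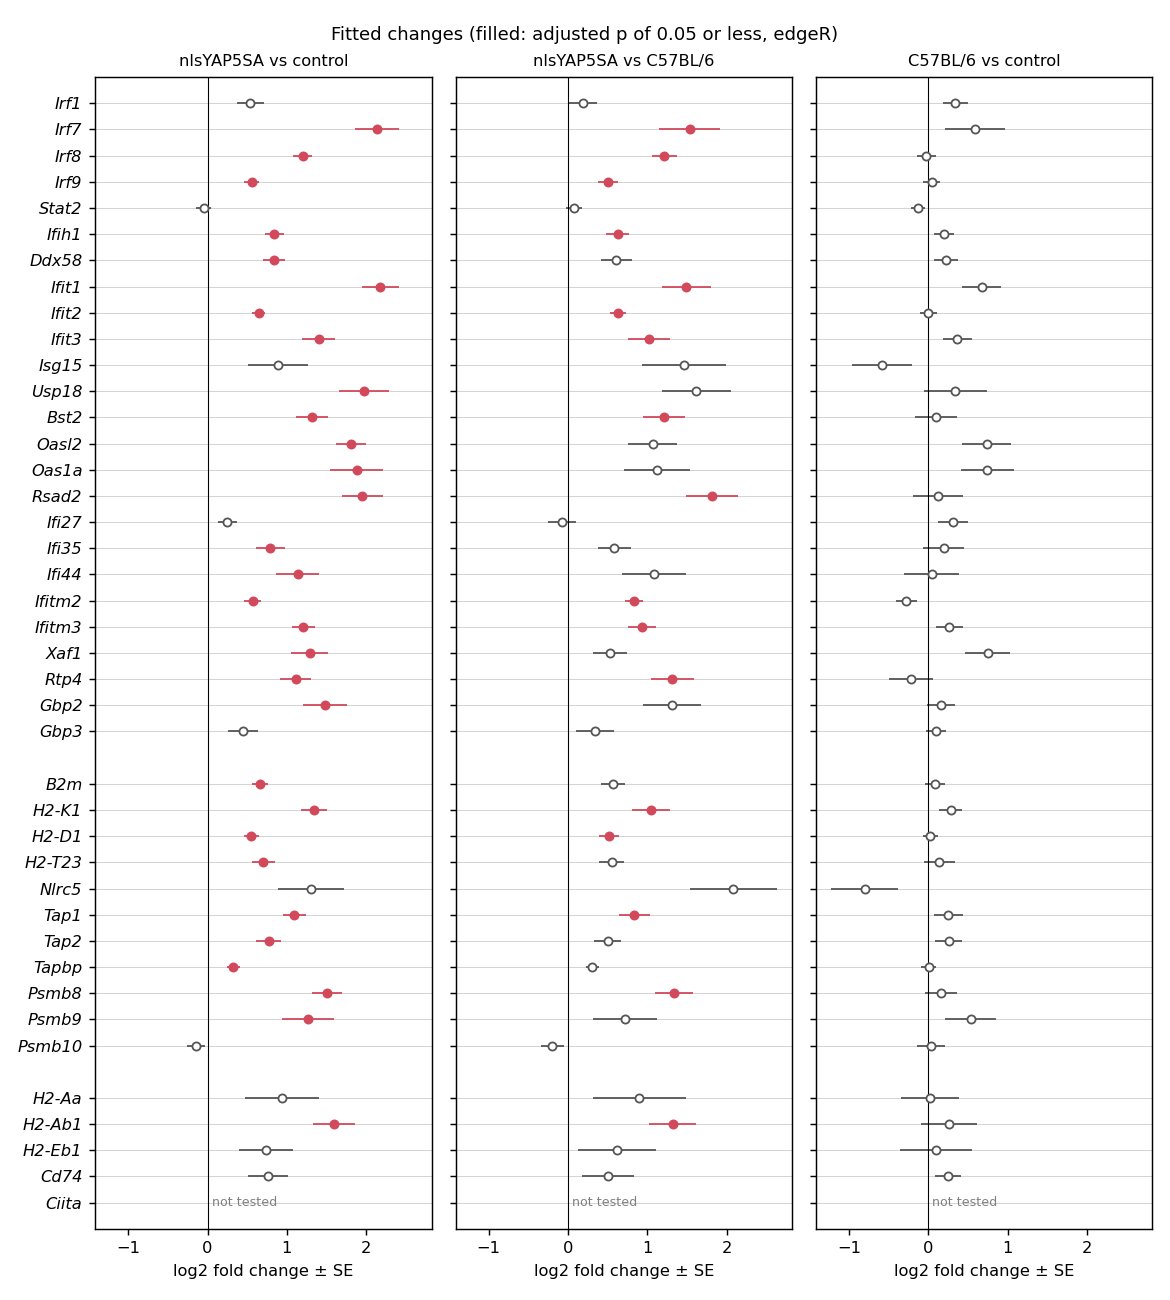
Fitted log2 fold change ± SE of each gene in the 3 comparisons, filled red where edgeR's adjusted p is 0.05 or less. In the left panel 30 of 40 tested genes are filled and all of these lie right of 0; the middle panel has 17 filled and the right panel 0. The left and middle panels share the nlsYAP5SA mice, and the left and right panels share the controls.

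Of the 5 nuclear factors of the response, 3 were called higher (Irf7, Irf8 and Irf9) and Irf1 and Stat2 were not. Irf7 stood at 0.859, 0.587, 0.584, 0.798 and 0.378 CPM in the controls, 2.98, 2.83, 1.43, 3.78 and 3.28 in the nlsYAP5SA mice and 1.61, 0.623 and 0.686 in the C57BL/6 mice. Irf7, the amplifier of type I interferon expression, had no overlap between nlsYAP5SA and control mice and rose 4.4-fold (log2 fold change 2.14 ± 0.28 (SE), edgeR adjusted p = 3.42e-04). Irf8 stood at 4.01, 3.8, 3.96, 3.74 and 3.31 CPM in the controls, 9.49, 8.38, 6.37, 9.78 and 9.32 in the nlsYAP5SA mice and 3.59, 3.55 and 3.96 in the C57BL/6 mice. Irf8, a factor of microglia and other myeloid cells that is also induced by interferon gamma, rose 2.3-fold with the 5 nlsYAP5SA values well clear of all others (log2 fold change 1.20 ± 0.12 (SE), edgeR adjusted p = 4.78e-05). Irf9, the DNA-binding subunit of the complex that binds the ISRE, lay between 5.88 and 6.93 CPM in controls and between 8.02 and 10.5 CPM in nlsYAP5SA mice (log2 fold change 0.56 ± 0.10 (SE), edgeR adjusted p = 0.0024). Stat2 stood at 16.2, 14, 16.3, 16 and 17.9 CPM in the controls, 15, 13.9, 15.1, 18.9 and 15 in the nlsYAP5SA mice and 14.5, 14.4 and 15 in the C57BL/6 mice. The groups overlapped for Stat2, the partner of Irf9 in that complex, and no difference was called (log2 fold change -0.05 ± 0.09 (SE), edgeR adjusted p = 0.81). Irf1, the early factor of interferon gamma responses, had a higher mean that was not called (log2 fold change 0.54 ± 0.17 (SE), edgeR adjusted p = 0.061), although DESeq2 called it (adjusted p = 0.034).

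Both cytosolic RNA sensors of the list rose. Ifih1 (MDA5) lay between 3.68 and 4.67 CPM in controls and 5.85 and 8.76 CPM in nlsYAP5SA mice (log2 fold change 0.84 ± 0.12 (SE), edgeR adjusted p = 6.23e-04), and Ddx58 (RIG-I) between 3.92 and 4.91 and between 5.85 and 8.96 CPM (log2 fold change 0.84 ± 0.14 (SE), edgeR adjusted p = 0.0018). The nlsYAP5SA and control mice did not overlap for either sensor.

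The largest change was that of an antiviral effector. Ifit1 stood at 0.654, 0.665, 0.75, 0.882 and 0.803 CPM in the controls, 4.07, 3.67, 1.86, 4.44 and 3.04 in the nlsYAP5SA mice and 1.57, 1.2 and 0.848 in the C57BL/6 mice. Ifit1, which binds viral RNA that lacks cap methylation and whose promoter is shown above, rose 4.53-fold, the largest change among the 41 genes (log2 fold change 2.18 ± 0.23 (SE), edgeR adjusted p = 7.04e-05). Ifit3 stood at 2.37, 1.72, 2.5, 2.6 and 2.41 CPM in the controls, 8.23, 6.83, 3.9, 7.3 and 4.4 in the nlsYAP5SA mice and 3.41, 3.16 and 2.42 in the C57BL/6 mice. The lowest nlsYAP5SA mouse, replicate 3, was still above the highest control for Ifit3, a partner of Ifit1 (log2 fold change 1.40 ± 0.21 (SE), edgeR adjusted p = 8.83e-04). Ifit2, the third gene of this cluster on chromosome 19 (34550694 to 34650009 in GENCODE M21 on GRCm38), rose less (log2 fold change 0.64 ± 0.08 (SE), edgeR adjusted p = 3.26e-04). The 3 neighbours thus had log2 fold changes of 0.64, 1.40 and 2.18 in the order of their positions, with the largest control level in Ifit2 (3.4 CPM per kb of exon, against 1.33 and 0.283). Ifit3 has the close copy Ifit3b and Ifit1 the related gene Ifit1bl1, and RSEM divides reads that map to more than 1 gene, so values within this family are uncertain. Ifit1bl1 and Ifit3b were called higher as well (log2 fold changes 0.65 and 1.21).

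Rsad2 stood at 1.1, 0.548, 0.625, 0.714 and 0.803 CPM in the controls, 2.76, 3.11, 1.65, 4.04 and 3.19 in the nlsYAP5SA mice and 1.17, 0.719 and 0.606 in the C57BL/6 mice. Rsad2 (viperin), an inhibitor of the replication of many viruses, rose 3.86-fold without overlap between nlsYAP5SA and control mice (log2 fold change 1.95 ± 0.26 (SE), edgeR adjusted p = 3.84e-04). Oasl2 stood at 1.84, 1.8, 1.88, 1.13 and 1.79 CPM in the controls, 8.32, 5.79, 4.59, 6.17 and 4.87 in the nlsYAP5SA mice and 4.35, 2.54 and 1.57 in the C57BL/6 mice. Oasl2, of the oligoadenylate synthetase family, rose 3.51-fold, and C57BL/6 replicate 1 reached 4.35 CPM beside 4.59 CPM in the lowest nlsYAP5SA mouse (log2 fold change 1.81 ± 0.19 (SE), edgeR adjusted p = 5.79e-05). Usp18 stood at 0.368, 0.391, 0.542, 0.714 and 0.378 CPM in the controls, 2.58, 1.93, 0.91, 2.57 and 1.5 in the nlsYAP5SA mice and 0.986, 0.527 and 0.323 in the C57BL/6 mice. Usp18 removes ISG15 from proteins and dampens type I interferon signalling, and it rose 3.92-fold from a level at the limit of the filter (log2 fold change 1.97 ± 0.31 (SE), edgeR adjusted p = 0.0013). Oas1a, the synthetase that activates RNase L, rose likewise from 0.362 ± 0.0919 to 1.35 ± 0.549 CPM (SD, n = 5 each, log2 fold change 1.88 ± 0.33 (SE), edgeR adjusted p = 0.0028).

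Isg15 stood at 1.02, 0.783, 0.875, 0.84 and 0.425 CPM in the controls, 1.36, 1.41, 0.477, 2.78 and 1.36 in the nlsYAP5SA mice and 0.807, 0.288 and 0.484 in the C57BL/6 mice. Isg15, the ubiquitin-like modifier of the response, was not called, with nlsYAP5SA replicate 3 in the control range and replicate 4 far above the others (log2 fold change 0.89 ± 0.38 (SE), edgeR adjusted p = 0.17). Its promoter, printed above, holds 3 ISRE matches. Without nlsYAP5SA replicate 3 it was called (adjusted p = 0.033). Ifitm3 stood at 6.87, 6.15, 4.67, 6.17 and 4.82 CPM in the controls, 15.8, 11.3, 10.1, 14.5 and 14.8 in the nlsYAP5SA mice and 8.03, 7.33 and 5.37 in the C57BL/6 mice. Ifitm3, which blocks virus entry by membrane fusion, rose 2.31-fold (log2 fold change 1.21 ± 0.15 (SE), edgeR adjusted p = 1.94e-04). Its neighbour Ifitm2 rose less (log2 fold change 0.57 ± 0.11 (SE), edgeR adjusted p = 0.0042), and reads may be shared within this family. Gbp2 stood at 2.04, 1.72, 1.92, 1.72 and 1.75 CPM in the controls, 3.75, 4.66, 2.43, 7.78 and 6.98 in the nlsYAP5SA mice and 2.47, 1.58 and 2.06 in the C57BL/6 mice. Gbp2, a guanylate-binding GTPase of cell-autonomous immunity, rose 2.79-fold, with nlsYAP5SA replicates 4 and 5 at the top (log2 fold change 1.48 ± 0.27 (SE), edgeR adjusted p = 0.0038), while for Gbp3 nlsYAP5SA replicate 3 was inside the control range and no difference was called (log2 fold change 0.45 ± 0.19 (SE), edgeR adjusted p = 0.17).

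The remaining called effectors were Bst2 (tetherin, which holds virions on the cell surface), Xaf1 (an antagonist of the apoptosis inhibitor XIAP), Rtp4, Ifi35 and Ifi44, with log2 fold changes of 1.31, 1.29, 1.11, 0.79 and 1.13 and edgeR adjusted p-values of 0.0011, 0.003, 0.0025, 0.013 and 0.017. Ifi27 was not called and its nlsYAP5SA mice (7.64, 6.5, 7.97, 6.35 and 7.87 CPM) overlapped the controls (7.2, 6.65, 5.79, 5.88 and 4.91 CPM, log2 fold change 0.25 ± 0.12 (SE), edgeR adjusted p = 0.21). Over the 18 effectors and modifiers, 15 were called higher, with a median log2 fold change of 1.25. The same median was 0.56 over the 5 nuclear factors, and both sensors were at 0.84.

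**Figure D3:**
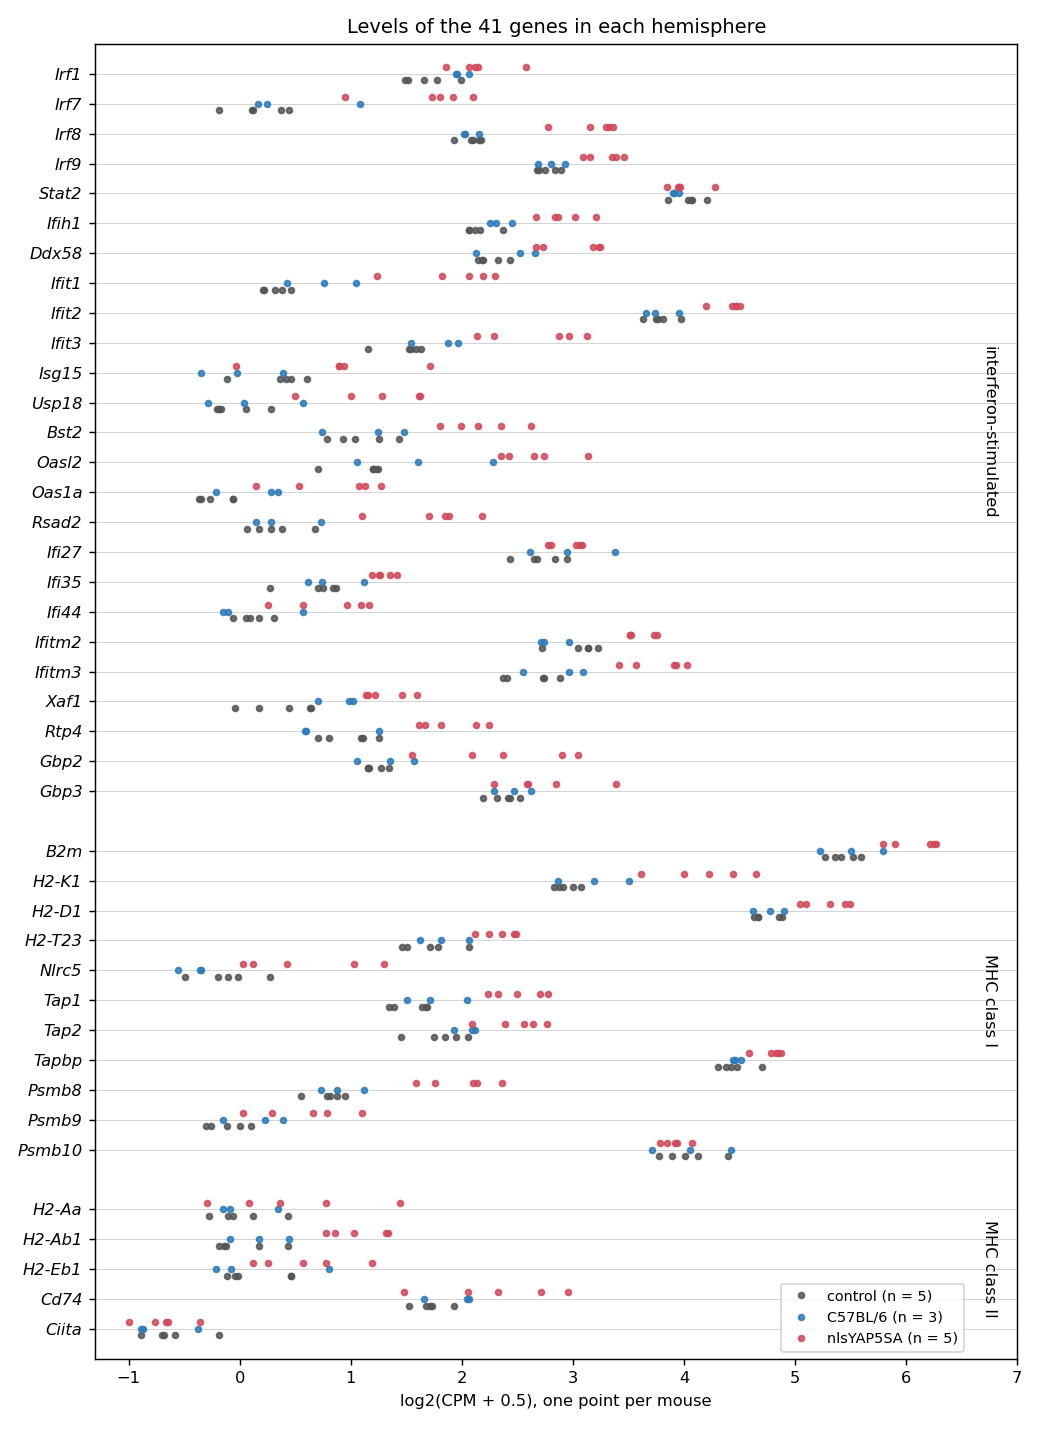
Level of each of the 41 genes in each of the 13 mice as log2(CPM + 0.5), 1 point per mouse, with controls in grey, C57BL/6 mice in blue and nlsYAP5SA mice in red. The red points stand to the right of every grey point in 27 genes, and Stat2, Psmb10 and Ciita show no such shift.

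In class I, the 4 chains of the list were called higher, and H2-D1 and H2-T23 lost their call with the Y-linked covariate (adjusted p = 0.082 and 0.11). B2m stood at 47.9, 40.5, 38.2, 45.6 and 42.1 CPM in the controls, 59.1, 75.4, 54.9, 73.7 and 76.5 in the nlsYAP5SA mice and 44.9, 54.8 and 36.9 in the C57BL/6 mice. B2m, the light chain that all class I heavy chains need, rose 1.58-fold, and its lowest nlsYAP5SA mouse exceeded all 8 other mice (log2 fold change 0.66 ± 0.10 (SE), edgeR adjusted p = 0.0011). H2-K1 stood at 6.62, 7.52, 7.92, 7.01 and 6.85 CPM in the controls, 15.5, 24.6, 11.7, 18.2 and 21.2 in the nlsYAP5SA mice and 8.65, 10.9 and 6.78 in the C57BL/6 mice. H2-K1, a classical heavy chain, rose 2.53-fold (log2 fold change 1.34 ± 0.17 (SE), edgeR adjusted p = 2.32e-04). H2-D1 stood at 29, 28.4, 24.9, 24.9 and 24.3 CPM in the controls, 33.8, 44.5, 32.5, 39.2 and 43.3 in the nlsYAP5SA mice and 26.8, 29.4 and 24.1 in the C57BL/6 mice. H2-D1, the other classical heavy chain, rose 1.47-fold and was likewise without overlap (log2 fold change 0.55 ± 0.10 (SE), edgeR adjusted p = 0.0029). The ratio of H2-K1 to H2-D1 CPM was 0.229, 0.264, 0.318, 0.282 and 0.282 in controls and 0.461, 0.552, 0.361, 0.465 and 0.489 in nlsYAP5SA mice, which did not overlap, and 0.323, 0.37 and 0.281 in C57BL/6 mice, of which replicate 2 was above nlsYAP5SA replicate 3. This ratio was chosen after the values were seen and has no test, and reads can be shared among H2 genes. H2-T23 (Qa-1, a non-classical heavy chain) rose as well (log2 fold change 0.70 ± 0.15 (SE), edgeR adjusted p = 0.0082). Nlrc5 stood at 0.491, 0.431, 0.375, 0.21 and 0.709 CPM in the controls, 0.588, 0.848, 0.52, 1.96 and 1.55 in the nlsYAP5SA mice and 0.179, 0.288 and 0.283 in the C57BL/6 mice. Nlrc5, the transactivator of these genes, overlapped between nlsYAP5SA and control mice and was not called (log2 fold change 1.3 ± 0.42 (SE), edgeR adjusted p = 0.068).

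Of the 6 genes that supply peptides to class I, 5 were called higher and Psmb10 was not. With the Y-linked covariate Psmb8 and Tap1 kept their call and Tap2, Tapbp and Psmb9 lost it (adjusted p = 0.17, 0.36 and 0.14), the last 2 also when single mice were left out. Psmb8 stood at 1.43, 1.25, 1.33, 0.966 and 1.23 CPM in the controls, 2.89, 3.91, 2.51, 4.65 and 3.79 in the nlsYAP5SA mice and 1.17, 1.68 and 1.33 in the C57BL/6 mice. Psmb8 (LMP7), an immunoproteasome subunit, rose 2.84-fold (log2 fold change 1.51 ± 0.19 (SE), edgeR adjusted p = 2.57e-04). Psmb9 (LMP2) rose 2.4-fold from 0.429 ± 0.109 CPM (SD, n = 5, log2 fold change 1.26 ± 0.33 (SE), edgeR adjusted p = 0.026). Psmb10 stood at 20.6, 16.9, 13.2, 15.6 and 14.4 CPM in the controls, 14.8, 13.9, 16.3, 14.6 and 13.3 in the nlsYAP5SA mice and 16.1, 20.9 and 12.6 in the C57BL/6 mice. Psmb10 (MECL-1), the remaining catalytic subunit, overlapped fully between the groups and had the highest control level of the 3 per length, 9.46 CPM per kb against 0.367 for Psmb8 and 0.117 for Psmb9 (log2 fold change -0.15 ± 0.12 (SE), edgeR adjusted p = 0.47). Tap1 stood at 2.7, 2.62, 2.04, 2.73 and 2.13 CPM in the controls, 5.15, 4.52, 4.2, 6 and 6.37 in the nlsYAP5SA mice and 2.78, 3.64 and 2.34 in the C57BL/6 mice. Tap1, a subunit of the peptide transporter, rose 2.14-fold without overlap (log2 fold change 1.10 ± 0.15 (SE), edgeR adjusted p = 4.11e-04). Tap2, the other subunit, rose 1.71-fold (log2 fold change 0.77 ± 0.16 (SE), edgeR adjusted p = 0.0083), and Tapbp (tapasin), which holds class I chains at the transporter, rose 1.25-fold (log2 fold change 0.33 ± 0.09 (SE), edgeR adjusted p = 0.029). Exons of Tap1 and Psmb9 share 212 bases, and exons of Tapbp, Tap2 and Psmb8 overlap genes on the other strand by up to 904, 533 and 498 bases, and the strand setting of the counting is not stated. Overlaps of 12 to 329 bases with other genes were annotated for Irf1, Irf7, Irf9, Usp18, Ifi35, Ifitm2, Gbp2, Rtp4, Nlrc5, Cd74 and Ciita, and the values of all these genes are uncertain to that extent.

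Of the 5 class II genes, H2-Ab1 alone was called. H2-Ab1 stood at 0.409, 0.626, 0.417, 0.378 and 0.85 CPM in the controls, 1.31, 2.02, 1.21, 2 and 1.55 in the nlsYAP5SA mice and 0.628, 0.863 and 0.444 in the C57BL/6 mice. H2-Ab1, the beta chain of I-A, rose 3.02-fold without overlap between nlsYAP5SA and control mice (log2 fold change 1.59 ± 0.26 (SE), edgeR adjusted p = 0.0017). H2-Aa stood at 0.327, 0.431, 0.459, 0.588 and 0.85 CPM in the controls, 0.316, 2.21, 0.563, 0.783 and 1.22 in the nlsYAP5SA mice and 0.404, 0.767 and 0.444 in the C57BL/6 mice. H2-Aa, the alpha chain of the same molecule, was spread over 0.316 to 2.21 CPM among nlsYAP5SA mice, with replicates 2 and 5 above the control range and the other 3 not (log2 fold change 0.94 ± 0.46 (SE), edgeR adjusted p = 0.24). H2-Eb1, the beta chain of I-E, exceeded the control range in replicates 2, 4 and 5 and spanned 0.588 to 1.79 CPM (log2 fold change 0.73 ± 0.34 (SE), edgeR adjusted p = 0.2). Cd74 stood at 3.31, 2.7, 2.38, 2.81 and 2.79 CPM in the controls, 3.66, 7.25, 2.3, 4.52 and 6.04 in the nlsYAP5SA mice and 3.68, 3.64 and 2.66 in the C57BL/6 mice. Cd74, the invariant chain, exceeded the control range in 4 of 5 nlsYAP5SA mice and was not called by edgeR (log2 fold change 0.76 ± 0.25 (SE), edgeR adjusted p = 0.081), but DESeq2 called it (adjusted p = 0.032). Ciita stood at 0.123, 0.117, 0.167, 0.042 and 0.378 CPM in the controls, 0.0904, 0.283, 0, 0.13 and 0.141 in the nlsYAP5SA mice and 0.269, 0.0479 and 0.0404 in the C57BL/6 mice. Ciita, the class II transactivator, had at most 8 counts in a control and 6 in an nlsYAP5SA mouse and was not tested.

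The nlsYAP5SA mice were ordered differently by the 3 gene groups. A score, the mean of log2(CPM + 0.5) over the tested genes of a group with the control mean set to 0, was 0.99, 0.88, 0.49, 1.16 and 0.89 for the interferon-stimulated genes in nlsYAP5SA replicates 1 to 5, 0.54, 0.76, 0.36, 0.88 and 0.85 for class I and 0.21, 1.25, 0.17, 0.72 and 0.79 for class II. The means were 0.88 ± 0.25, 0.68 ± 0.23 and 0.63 ± 0.45 (SD, n = 5), while the controls had an SD of 0.07, 0.07 and 0.10. Every nlsYAP5SA mouse scored above every control in each of the 3 groups, in class II by a narrow margin (lowest nlsYAP5SA mouse 0.17, highest control 0.14) and without Ciita, which was not tested. Of the 4 class II genes scored, H2-Aa, H2-Ab1 and H2-Eb1 could pass the filter only with nlsYAP5SA mice that were higher. The class II separation is thus partly set by the filter and supports nothing by itself. The same limit holds for Irf7, Isg15, Usp18, Oas1a, Nlrc5 and Psmb9 in the other groups. The summed CPM of the 5 class II genes did overlap (4.77 in nlsYAP5SA replicate 3 against 5.29 in control replicate 5), as did that of the 6 genes of class I peptide supply (50.9 against 53.7 in control replicate 1). Replicate 3 was lowest in all 3, and it was the lowest nlsYAP5SA mouse in 31 of the 40 tested genes. Replicate 4 was highest in 14 of 25 interferon-stimulated genes and replicate 1 in 7, replicate 5 in 5 of 11 class I genes, and replicate 2 in 4 of 4 class II genes. The differences between gene groups were not tested.

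**Figure D4:**
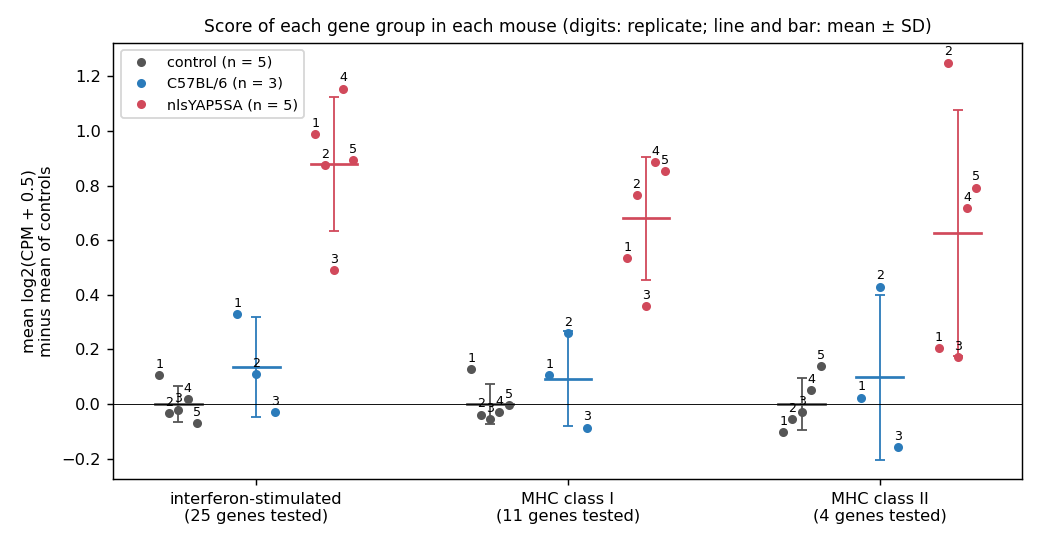
Score of the interferon-stimulated, MHC class I and MHC class II genes in each mouse (y axis, log2 units relative to the control mean), with the replicate number above each point and mean ± SD as line and bar. The nlsYAP5SA points lie between 0.49 and 1.16, 0.36 and 0.88, and 0.17 and 1.25 in the 3 groups; replicate 3 is lowest in each and replicate 2 stands at the top of class II.

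Replicate 3 was also the lowest nlsYAP5SA mouse for the summed microglia markers (562, 599, 478, 619.8 and 637 CPM in replicates 1 to 5), for Cyr61 (27.5, 25.1, 17.2, 29.4 and 29.6 CPM) and for Ankrd1 (4.25, 5.04, 2.73, 6.04 and 6.51 CPM), another YAP1 target, named after its values were seen. For Ctgf replicate 4 was lowest instead (55.8, 51.9, 45.4, 38.4 and 49.1 CPM). Replicate 2, the highest for class II, had the highest level of Ccr2, a receptor of monocytes (0.497, 4.38, 0.26, 1.13 and 1.17 CPM, against 0 to 0.47 in controls). The other markers of the monocyte and neutrophil list varied. Ly6c2 (2, 5, 1, 12 and 8 counts) and Plac8 (8, 8, 9, 27 and 10 counts) were highest in replicate 4. Chil3 (1, 4, 0, 1 and 0 counts) was highest in replicate 2, S100a8 in replicate 1 and S100a9 in replicate 3. The part of these differences between mice in the member levels was not tested. Without replicate 3, 34 members were called, against 7.45% of all genes called higher in that fit, and Irf1, Isg15, Nlrc5 and Cd74 gained a call.

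In fits that allow for sex, fewer genes passed and nearly all means stayed higher. All 5 controls had Y-linked transcripts, so in these fits the group difference rests largely on nlsYAP5SA replicates 3 and 4. Replicate 3 was the lowest nlsYAP5SA mouse in 31 of the 40 tested genes. Calls lost through sex cannot be told apart from calls lost through that mouse. With the Y-linked level as a covariate, 21 members were called (16 interferon-stimulated, 4 class I and 1 class II), against 2.92% of all genes called higher. Among the mice with Y-linked transcripts alone (2 nlsYAP5SA against 5 controls, a comparison added after the data were seen), 14 were called (10, 4 and 0), against 1.82% of all genes, and 39 of 41 had a higher mean. Genes that lost their call with the covariate were Irf9, Ifi35, Ifi44, Ifitm2, H2-D1, H2-T23, Tap2, Tapbp and Psmb9, whose log2 fold changes then lay between 0.25 (Tapbp) and 1.32 (Psmb9). When 1 mouse was left out at a time, 28 of the 30 kept their call in all 10 fits. Tapbp lost it without control replicate 2, 3, 4 or 5 or nlsYAP5SA replicate 2, 4 or 5, and Psmb9 without control replicate 2, 4 or 5 or nlsYAP5SA replicate 2, 4 or 5.

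The wild-type C57BL/6 mice address whether the level in the controls, which carry the silent transgene, is that of the background strain. No member differed between C57BL/6 and control mice by edgeR at an adjusted p of 0.05, against 0.169% of 16546 genes called. Unadjusted, 3 of the 40 members tested (Ifit1, Oasl2 and Xaf1) had an edgeR p under 0.05, beside 625 of all 16546 genes. With the Y-linked covariate or by DESeq2, 0 members were called (against 0.357% of all genes by DESeq2). The median log2 fold change was 0.19 for interferon-stimulated, 0.14 for class I and 0.17 for class II genes, and 33 of 41 means were higher in C57BL/6 mice. Xaf1 stood at 1.06, 0.861, 0.625, 1.05 and 0.472 CPM in the controls, 2.26, 1.7, 1.73, 2.52 and 1.83 in the nlsYAP5SA mice and 1.48, 1.53 and 1.13 in the C57BL/6 mice. Xaf1 was the 1 member for which every C57BL/6 mouse was above every control, which held for 1.95% of all genes (log2 fold change 0.75 ± 0.28 (SE), edgeR adjusted p = 1). The C57BL/6 mice were uneven among themselves: their scores were 0.33, 0.11 and -0.03 in replicates 1 to 3 for interferon-stimulated genes, 0.11, 0.26 and -0.09 for class I and 0.02, 0.43 and -0.16 for class II. Replicate 1 was thus highest for the interferon-stimulated genes and replicate 2 for both MHC groups, and without replicate 1 the interferon-stimulated median fell to 0.02. With 3 mice, small differences from the controls could be missed, and the size that could be detected was not worked out.

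Against C57BL/6 mice, nlsYAP5SA mice had 17 members called, all higher (12 interferon-stimulated, 4 class I and 1 class II), with 4.16% of 16641 genes called higher. Every nlsYAP5SA mouse was above every C57BL/6 mouse in 24 members, as in 8.71% of all genes, and the mean was higher in 39 of 41. The medians were 1.02, 0.56 and 0.76 on the log2 scale. Irf8 (log2 fold change 1.21 ± 0.16 (SE), edgeR adjusted p = 0.0021), Ifit1 (log2 fold change 1.49 ± 0.31 (SE), edgeR adjusted p = 0.021), Psmb8 (log2 fold change 1.34 ± 0.24 (SE), edgeR adjusted p = 0.012) and H2-Ab1 (log2 fold change 1.32 ± 0.30 (SE), edgeR adjusted p = 0.029) were among the genes called. Oasl2, with the high C57BL/6 replicate 1, was not (log2 fold change 1.07 ± 0.30 (SE), edgeR adjusted p = 0.07). With the Y-linked covariate 10 members were called, against 3.27% of genes higher, and DESeq2 called 25, against 5.72%. The edgeR count was less stable than that against controls. It was 8 to 11 without any 1 of the 3 C57BL/6 mice or without nlsYAP5SA replicate 1, 2, 4 or 5, and 24 without nlsYAP5SA replicate 3. Both comparisons share the nlsYAP5SA mice, so they are not independent.

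Per length of exon, the members spanned a wide range. B2m was highest in controls at 49.8 ± 4.53 CPM per kb (SD, n = 5) and in nlsYAP5SA mice at 79 ± 11.8. In controls Ifitm2 (12 ± 1.64), H2-D1 (10.2 ± 0.851), Psmb10 (9.46 ± 1.68) and Ifitm3 (8.46 ± 1.4) followed, and in nlsYAP5SA mice Ifitm3 came directly after B2m (19.6 ± 3.59), with Ifitm2 at 17.9 ± 1.67. Neighbours in this order lay within their spread in places, such as Psmb10 and Ifitm3 in the controls. Ciita and Nlrc5 were lowest (0.0173 ± 0.0133 and 0.0522 ± 0.0214 in controls).

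The members lie on 15 chromosomes. The largest block was on chromosome 17, where 11 members, among them H2-K1, Psmb8, Psmb9, Tap1, Tap2, H2-Ab1 and H2-D1, lie between 33915899 and 36032855 and 9 were called. The Ifit cluster on chromosome 19 (3 of 3 called) and Ifitm2, Ifitm3 and Irf7 on chromosome 7, between 140954837 and 141266481 (3 of 3 called), were other groups of neighbours, as were Gbp3 and Gbp2 on chromosome 3 (1 of 2 called). Of the 15 genes with an ISRE match 12 were called, with a median log2 fold change of 0.89, and of the 18 with a window but no match 14 were, with a median of 1.02. With and without a GAS match 7 of 8 and 19 of 25 were called (medians 1.20 and 0.89), and with and without a CCAAT match 12 of 16 and 14 of 17 (medians 0.72 and 1.21). These are descriptions with no test.

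The transcripts of the interferons examined, which do not include every Ifna gene, were at or near 0. Of 11 ligands, 9 (Ifnb1, 5 Ifna genes, Ifnk, Ifnl2 and Ifnl3) had 0 counts in all 13 mice, which allows up to 3 counts a library, a floor that covers counting error only. Ifne had 2 and Ifng 3 counts in total, so no ligand could be tested. Among 15 receptors and signal transducers 6 were higher, beside 7.36% of all genes tested. Socs3, a feedback inhibitor of JAK kinases, had the largest change (log2 fold change 1.52 ± 0.16 (SE), edgeR adjusted p = 5.48e-05), and Ifngr1, a chain of the interferon gamma receptor, rose less (log2 fold change 0.47 ± 0.09 (SE), edgeR adjusted p = 0.0049). The mean was higher in 12 of the 15. It was lower, without a call, in Socs1, Ptpn2 and Ifngr2, the other chain of that receptor. The receptors of type I interferon, Ifnar1 and Ifnar2, had log2 fold changes of 0.10 and 0.11 (edgeR adjusted p = 0.34 and 0.34).

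Of 17 genes of nucleic acid sensing, 7 were higher, among them the endosomal receptors Tlr7 (log2 fold change 1.26) and Tlr9 (1.11), the RIG-I-like receptor Dhx58 (1.02) and the factor Irf5 (0.96). The mean was higher in 14 of the 17. In Irf3 the CPM of every nlsYAP5SA mouse was below that of every control, without a call (log2 fold change -0.32). Of 41 further interferon-stimulated genes, 25 were higher and 0 lower, with 6 not tested and a median of 0.82. Cxcl10 stood at 0.0409, 0.0783, 0.459, 0.21 and 0.236 CPM in the controls, 1.18, 1.41, 0.823, 4 and 2.2 in the nlsYAP5SA mice and 0.179, 0 and 0.0807 in the C57BL/6 mice. Cxcl10, a chemokine that attracts T cells, was near the detection limit in the controls and higher in each nlsYAP5SA mouse (log2 fold change 3.22 ± 0.55 (SE), edgeR adjusted p = 0.0023). Ifi204, a DNA-binding p200 protein of myeloid cells, lay between 0.0783 and 0.368 CPM in controls and between 0.823 and 3.63 in nlsYAP5SA mice (log2 fold change 3.31 ± 0.43 (SE), edgeR adjusted p = 3.06e-04). Every control of Ifi204 and 4 of 5 controls of Cxcl10 were under the level the filter asked for, so both passed it through the nlsYAP5SA mice and their fitted folds rest on few control counts. Iigp1, an immunity-related GTPase, had a log2 fold change of 1.91.

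Of 17 further class I genes, 6 were higher and 1 lower. H2-Q7 and H2-Q4, non-classical heavy chains that can share reads with other H2 genes, had log2 fold changes of 1.35 and 0.98, where H2-Q7 had 1 of 5 controls over the level the filter asked for and passed it through the nlsYAP5SA mice, and Calr, the chaperone calreticulin, fell by 0.24. Of 12 further class II genes, 4 were higher, and these were the lysosomal enzymes Ctss (log2 fold change 1.84 ± 0.10 (SE), edgeR adjusted p = 3.12e-07), Ifi30 (log2 fold change 0.78) and Lgmn (0.46) and the peptide exchange subunit H2-DMb1 (1.57). Cathepsin S, the product of Ctss, cleaves the invariant chain and is also a common microglial transcript. Over these lists of 113 genes, 48 were higher and 1 lower in nlsYAP5SA than in control mice (against 7.36% higher and 3.44% lower among all genes tested). Between C57BL/6 and control mice 0 were called by edgeR or by DESeq2. In that comparison 5 of the 86 tested had an unadjusted edgeR p of 0.05 or less, beside 625 of all 16546 genes.

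Some markers of other cell types also differed between the groups. Of 10 microglia markers 7 were called higher, the list's median being 0.52 on the log2 scale, and the summed level was 355 to 442 CPM in controls, 478 to 637 in nlsYAP5SA mice and 379 to 434 in C57BL/6 mice. The markers of homeostatic microglia P2ry12, Siglech and Fcrls were among the 3 not called (log2 fold changes 0.07, 0.12 and 0.19). Border macrophage markers summed to 18.6 to 30.3 CPM in controls and 26.9 to 41.5 in nlsYAP5SA mice, but the median log2 fold change of the 6 genes was 0.00, 3 had a higher mean, and Cd163 (1.07) and F13a1 (0.73) were called. Monocyte and neutrophil markers summed to 0.378 to 0.822 and 0.997 to 5.37 CPM, where Ccr2 was the 1 marker of 7 that could be tested and was called (log2 fold change 2.90 ± 0.81 (SE), edgeR adjusted p = 0.038), with 1 of 5 controls over the level the filter asked for and replicate 2 far above the other nlsYAP5SA mice, and with Ly6g at 0 in all mice. Most genes of the lymphocyte and dendritic lists were too low to test: 2 of 6 dendritic, 2 of 8 T or NK and 2 of 6 B cell markers were tested, and of these 0 were called by edgeR or DESeq2 (0, 0 and 1 at an unadjusted edgeR p of 0.05 or less). Itgax (CD11c), a dendritic marker that activated microglia also carry, was not tested and was at 0, 0.157, 0.208, 0.084 and 0.0472 CPM in the controls and 0.814, 1.08, 0.0867, 1.52 and 1.31 in the nlsYAP5SA mice, 4 of which were above every control. Against C57BL/6 mice 1 dendritic marker of 3 tested was called higher. T and NK markers summed to 6.88 to 8.63 and 5.93 to 8.99 CPM, nearly all of it from Cd4 and Lck. Cd3e, Cd3d, Cd3g, Cd8a and Klrb1c had at most 2 counts in any mouse, and Ncr1 was at 0 in all mice. The sum is thus no measure of T or NK cells. Of 6 astrocyte markers 3 were higher, Gfap most (log2 fold change 2.06 ± 0.07 (SE), edgeR adjusted p = 1.34e-08). Endothelial markers had 2 genes lower, neuron markers 1 lower (Neurod6), choroid plexus markers 1 higher (Folr1), and oligodendrocyte markers had 0 called by edgeR, 2 by DESeq2 and 4 at an unadjusted edgeR p of 0.05 or less. Over all genes tested between nlsYAP5SA and control mice, 3984 of 16315 had such an unadjusted p. The summed level of the microglia list was without overlap between nlsYAP5SA and control mice, as were the sums of the monocyte and neutrophil list, of the 3 interferon-stimulated subgroups and of the class I chains and Nlrc5, while those of class I peptide supply and class II overlapped. The part of microglia number in the member levels was not tested.

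**Figure D5:**
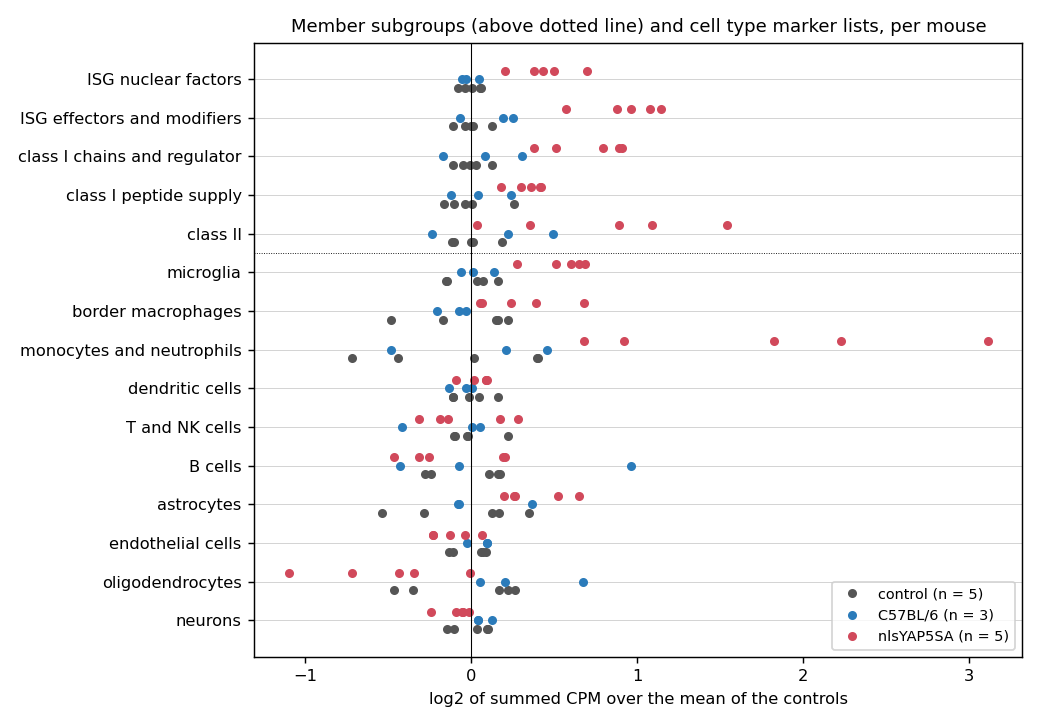
Summed level of the member subgroups (above the dotted line) and of the cell type marker lists (below it) in each mouse, as log2 of the summed CPM over the control mean. The nlsYAP5SA points lie right of the controls in the microglia list and most member subgroups, spread widely for monocytes and neutrophils, and mix with the controls for the T and NK cell and B cell lists. The T and NK cell sum comes nearly all from Cd4 and Lck.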

How the data were processed

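Poly(A) RNA of 13 right hemispheres was prepared with KAPA mRNA HyperPrep libraries and sequenced. Per the labels, the authors trimmed reads with cutadapt 1.5, aligned them with STAR (given as 2.2.2a) to GRCm38 and deposited expected counts per Ensembl gene from RSEM 1.3.0, which divides reads shared between similar genes. The strand setting is not given in the sources used here. The estimated counts (12.4 to 13.3% of values were not whole) were rounded. Depth was 20871566 to 25524349 per library, and 48349 of 48795 identifiers could be named.

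Members were matched by symbol. The members, lists and tests were chosen with earlier results of these data known. All 41 members were named, and of each further pathway list up to 4 called genes with the largest change, of the marker lists those called or defining, and Yap1, Ctgf and Cyr61 as a check. Ifnar1, Ifnar2, Ifngr2, Socs1, Ptpn2, Irf3, Ankrd1, Ifit1bl1 and Ifit3b were added after their values were seen. So were the markers of monocytes, neutrophils, T and NK cells that are named but were not called. Each comparison was fitted on its own samples with edgeR 4.0.16 (R 4.3.3), using filterByExpr (minimum count 10, minimum total 15), TMM factors, the quasi-likelihood test and Benjamini-Hochberg adjustment over all genes tested. The fit was tested on simulated data. DESeq2 1.42.0 was an alternative, beside other scalings, filters, leaving out each mouse, a replicate block and a Y-linked covariate. GENCODE M21, a later annotation than the deposited one, gave positions and exon lengths. RefSeq GRCm38.p6 gave promoters, and no window was found for Tap2, Ifi27, H2-Ab1, Nlrc5, Usp18, Cd74, Ciita and Rtp4. The labels do not map mice to litters or sexes, and p-values measure the spread between these mice.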

Additional observations from a re-analysis of the deposited data

Results flagged for a closer look

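Of 82 groups of 5 mice (41 genes in control and nlsYAP5SA mice), 4 held a mouse whose distance to its nearest neighbour exceeded Dixon's 95% critical value of 0.71 of the range, and chance gives about 1 in 20 such groups. Stat2 was at 18.9 CPM in nlsYAP5SA replicate 4, against 13.9 to 15.1 in the other nlsYAP5SA mice. Ifit2 was at 17.8 CPM in nlsYAP5SA replicate 3, against 21 to 22.2 in the others. Among the controls, Ifit3 was at 1.72 CPM in replicate 2, against 2.37 to 2.6, and Oasl2 was at 1.13 CPM in replicate 4, against 1.79 to 1.88. The 2 nlsYAP5SA values lie toward the sides on which these mice stood for most interferon-stimulated genes, replicate 4 high and replicate 3 low.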

How the results depend on the processing

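The 30 members called between nlsYAP5SA and control mice were 30 with library size alone, DESeq2 size factors or no filter, 31 in a single fit of all 13 mice, 33 by DESeq2, 25 with at least 10 counts in every sample (where 31 members were tested and none of these lost its call) and 21 with the Y-linked covariate. No called result changed direction, but Stat2, not called, went from -0.05 to 0.08 with the covariate and in mice with Y-linked transcripts, and the class II median between C57BL/6 and control mice changed sign. In mice with Y-linked transcripts alone, chosen after the data were seen, 14 were called, of them 10 of the 20 interferon-stimulated genes, 4 of the 9 class I genes and 0 class II genes. Class I also fell to 4 with the Y-linked covariate. Class II was 2 by DESeq2, 0 with at least 10 counts in every sample (H2-Ab1 was then not tested) and 1 to 2 without 1 mouse. The class II median of 0.85 became 0.50 with the covariate, 0.47 in mice with Y-linked transcripts and 0.51 to 1.03 without 1 mouse (lowest without nlsYAP5SA replicate 2). Between C57BL/6 and control mice, the interferon-stimulated median of 0.19 ranged from 0.024 to 0.26 and the class II median of 0.17 from -0.15 (without C57BL/6 replicate 2) to 0.38 without 1 mouse, the latter being -0.12 with the covariate. Between nlsYAP5SA and C57BL/6 mice, the 17 members became 10 with the covariate and 8 to 24 without 1 mouse. The 12 interferon-stimulated genes ranged from 5 to 15, the 4 class I genes from 0 to 8 and the 1 class II gene from 0 to 1, with medians of 0.79 to 1.15 (interferon-stimulated) and 0.38 to 1.31 (class II). Class I was 8 by DESeq2, 7 in the fit of all 13 mice and 2 with the covariate, and class II was 0 with the covariate. The cause of these shifts was not tested. With a pseudocount of 2 CPM the interferon-stimulated score fell from 0.88 to 0.59 and the class I score from 0.68 to 0.50.

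Replicate numbers were not taken to pair the mice. Same-numbered deviations of nlsYAP5SA and control mice correlated between -0.31 and 0.31, and 2 of 10 mice correlated best with their own number. For C57BL/6 and control mice the values were 0.12, -0.02 and 0.49, and 3 of 6 mice correlated best with their own number. With the replicate block 28 members were called between nlsYAP5SA and control mice. Between nlsYAP5SA and C57BL/6 mice, where the block leaves 3 mice a group, it gave 0 members, that is 0 interferon-stimulated, 0 class I and 0 class II genes. The share of all genes called was not worked out for either block fit. Neither count can therefore be read as particular to the members. Counts were low for Ciita, Nlrc5, Psmb9 and the class II chains, which limits what could be detected there.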
